A study of Mus musculus with 8 samples.

Results

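The gained promoter peaks on autosomes are regions of open chromatin that lay at a protein-coding transcription start on chromosomes 1 to 19 and were listed in *Arid1a* cKO pachytene spermatocytes without any base in common with a peak of the *Arid1a* WT list. There were 1036 of them among the 30244 peaks of the cKO list, and their centres lay in the promoter windows of 1032 genes. They were chosen by the measured peak calls themselves: present in the cKO list, absent from the WT list (19309 peaks), under 5000 bp wide, and centred between 1000 bp upstream and 100 bp downstream of an annotated start. Being gained is therefore what selected them and is not a result. Of all 7714 autosomal promoter peaks of the cKO list under that width, 13.4% were gained in this sense, whereas 43.7% of the 28071 autosomal peaks of the list anywhere were gained. The remaining 6678 autosomal promoter peaks, which overlapped a WT peak, are called common promoter peaks and serve for comparison.

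Accessibility was measured by ATAC-seq, which sequences the DNA that a transposase can reach, in 4 Arid1aWT and 4 Arid1acKO libraries of purified pachytene spermatocytes from adult testis. The cKO males carried floxed *Arid1a* alleles on a CD1 background and the *Stra8-Cre* transgene, which is active in spermatogonia, and the WT males carried floxed *Arid1a* without Cre. Cells were pooled from several males and enriched by sedimentation, so other testis cells could be present. Cre acted incompletely, and some spermatocytes of the cKO libraries still had ARID1A. Each genotype was given as 1 peak list drawn from its 4 libraries, hence replicate values cannot be shown and no difference between genotypes was tested.

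ARID1A is a DNA-binding subunit of BAF, a SWI/SNF complex that uses ATP to slide or evict nucleosomes. Promoters of genes that are active in a cell, or are held ready for activity, usually have a nucleosome-free stretch just upstream of the start, and this stretch gives an ATAC-seq peak. Many promoters lie in CpG islands, stretches in which the CG dinucleotide has not been lost to methylation and decay, and such promoters are often open in many cell types. In pachytene spermatocytes, which are male germ cells in meiotic prophase, homologous autosomes are fully paired.

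The bases directly upstream of the nearest start are given for the strongest members, because they show the range of base composition among them. Each sequence runs 5′ to 3′ on the strand of the gene up to the base before the start, is taken from the GRCm38 (mm10) reference, and stops where an annotated exon of any transcript begins. CG dinucleotides are in capitals. *Tec*, *Slc8b1* and *Gli3*, which rank among the 6 strongest, have no base of this kind because an annotated exon covers the bases before the start, so the next members with at least 50 such bases take their places. *Prm1* was added after its values were seen, as the best-known spermatid gene of the set. Every base shown lay inside the gained peak.
Cgn, chr3:94786493-94786642, minus strand: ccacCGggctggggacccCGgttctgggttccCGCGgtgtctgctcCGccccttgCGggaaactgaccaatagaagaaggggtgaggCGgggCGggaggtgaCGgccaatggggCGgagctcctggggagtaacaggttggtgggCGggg
Snx7, chr3:117868937-117869086, minus strand: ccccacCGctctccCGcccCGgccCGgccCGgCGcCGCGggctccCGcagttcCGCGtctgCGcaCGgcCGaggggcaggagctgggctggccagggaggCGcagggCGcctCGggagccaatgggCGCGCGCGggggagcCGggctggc
Ubxn10, chr4:138725266-138725324, minus strand: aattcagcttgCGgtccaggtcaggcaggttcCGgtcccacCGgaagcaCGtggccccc
Nedd9, chr13:41359248-41359397, minus strand: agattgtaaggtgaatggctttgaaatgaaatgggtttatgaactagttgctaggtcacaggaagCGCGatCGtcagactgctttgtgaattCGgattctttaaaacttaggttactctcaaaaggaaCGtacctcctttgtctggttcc
Disp2, chr2:118779569-118779718, plus strand: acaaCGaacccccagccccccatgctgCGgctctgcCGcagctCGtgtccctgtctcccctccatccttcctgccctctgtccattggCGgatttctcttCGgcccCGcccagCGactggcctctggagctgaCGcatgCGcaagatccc
Cpz, chr5:35525699-35525848, minus strand: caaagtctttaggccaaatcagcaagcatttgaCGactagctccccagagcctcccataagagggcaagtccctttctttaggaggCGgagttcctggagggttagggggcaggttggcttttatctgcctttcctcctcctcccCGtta
Prm1, chr16:10796887-10797036, minus strand: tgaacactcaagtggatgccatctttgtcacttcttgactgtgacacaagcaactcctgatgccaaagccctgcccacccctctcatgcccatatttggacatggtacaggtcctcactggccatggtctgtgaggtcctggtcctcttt

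The stretch upstream of *Snx7* held 22 CG dinucleotides at 83.3% GC, and that of *Cgn* held 11 at 69.3% GC. *Nedd9* had 5 at 41.3% GC and *Cpz* 3 at 53.3% GC. The *Prm1* stretch held none. In 500 bp around the peak centre, the observed/expected CpG ratio, which is the CG count over that expected from the C and G content, of the strong members shown ran from 0.299 at *Ubxn10* to 0.837 at *Nedd9*, with 0.503 at *Cpz*, 0.659 at *Cgn* and 0.782 at *Snx7*. *Prm1* was not among the strong members.

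The strength of a peak is given as the fold enrichment that the authors' peak caller assigned to its summit, (pileup + 1) divided by (library background + 1), and as −log10 q, which scores that enrichment against a Poisson background. Both are values of a single library of the genotype, which the sources do not name, come from the same lists that chose the members and are given as a description. The gained promoter peaks were weak. Their median fold enrichment was 3.60 (95% order-statistic interval, 3.60 to 3.76), with quartiles of 3.11 and 4.42, and the range reached from 2.45 to 13.9. Common promoter peaks had a median of 13.9 (13.6 to 14.1) and gained peaks away from promoters a median of 3.44. In fragments, the median summit pileup was 21 in the gained promoter peaks and 84 in the common ones. Gained promoter peaks were also narrower, with a median width of 526 bp (500 to 551) against 1543 bp (1519 to 1562).

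**Figure D1:**
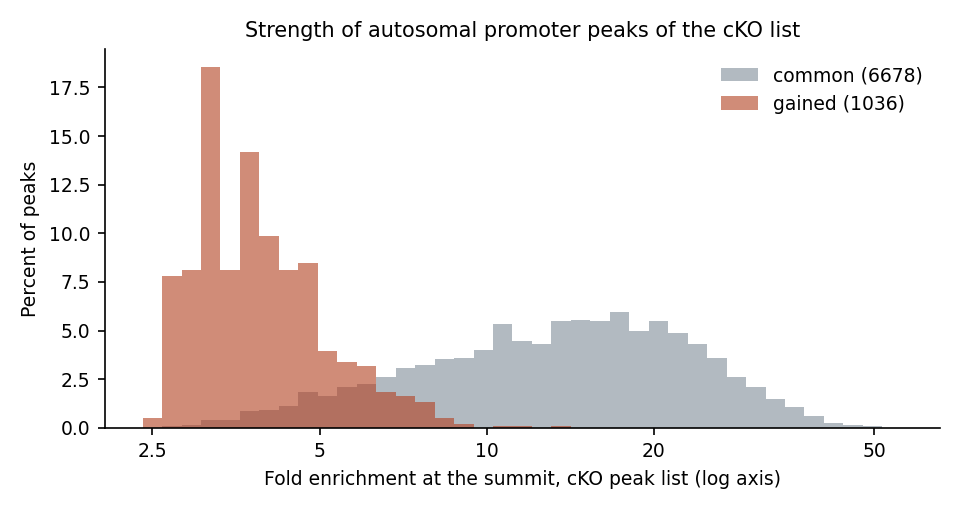
Percent of autosomal promoter peaks of the cKO list (y axis) by fold enrichment at the summit (x axis, log scale), for the 1036 gained and the 6678 common promoter peaks. The gained peaks pile up at low enrichment around their median of 3.60, and only their upper tail reaches the bulk of the common peaks, whose median is 13.9.

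The share of promoter peaks that were gained fell steeply with strength. At a −log10 q under 5, 446 of 514 promoter peaks were gained (86.8%, 95% Wilson interval, 83.6 to 89.4). Between 5 and 10 the share was 60.2% (56.2 to 64.0) and between 10 and 20 it was 23.6% (20.7 to 26.7). At 20 or more, 43 of 5827 promoter peaks were gained (0.738%, 0.548 to 0.992). A −log10 q of at least 5 was reached by 590 members, of at least 10 by 223 and of at least 20 by 43. These intervals, like all that follow, cover counting error only.

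The rows of the list bear on how often a member was seen in other cKO libraries, since each row is a stretch that a peak shared with a peak from another replicate. A library can give several rows, because only 3 other libraries exist and 35 members and 152 common promoter peaks had more than 3 rows, so 3 rows need not stand for 3 libraries. On 3 or more rows were 731 of 1036 members (70.6%, 67.7 to 73.3), on 2 rows 194 and on 1 row 111. The share was 99.7% among common promoter peaks and 55.8% (54.9 to 56.7) among gained peaks away from promoters. Within equal strength the gap narrowed, since at a −log10 q between 10 and 20 the shares were 94.4% (90.1 to 97) for gained and 99.5% (98.5 to 99.8) for common promoter peaks. Under 5, where 446 members lay, the gap was wider than over all peaks, at 51.6% (46.9 to 56.2) and 91.2% (82.1 to 95.9).

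The lists differ in depth by a measure that can be recovered from the fold values. The cKO list had a background of 5.11 fragments per base and the WT list one of 4.33, and the lowest pileup of any peak was 14 and 13 fragments. Scaled down by this ratio (0.847), the summit pileup of 1004 of 1036 members (96.9%, 95.7 to 97.8) was at least the WT minimum of 13 fragments. This share was largely set in advance, because no cKO peak had a pileup under 14 fragments. A place on the WT list also required a stretch shared with another WT library, and the depth of the other libraries is unknown. The share therefore does not show how far depth shaped the set, which was not tested. The WT pileup at these places was not analysed here. The study found that spermatocytes lacking ARID1A arrest at mid-pachynema, so the cell stages in the libraries of the genotypes could differ as well. Depth, peak calling, cell stage and a change in accessibility therefore cannot be told apart, for a single member or for the set.

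The 20 strongest members on 3 or more rows and of mostly unique sequence all filled exactly 3 rows. In 17 of them the peak centre lay within 100 bp of the start, and in 19 every sampled 50-mer occurred once in the genome. The strongest was at *Cgn*, the gene of cingulin, a tight junction plaque protein. Its peak at chr3:94785999-94786997 had a fold enrichment of 13.9, a pileup of 84 fragments and a −log10 q of 67.3, and its centre lay at -6 bp from the start. This is the median strength of a common promoter peak, whereas the nearest WT peak lay 50051 bp away.

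*Snx7*, a sorting nexin of endosomal traffic, followed with a fold enrichment of 11.3 at chr3:117868669-117869269. *Tec*, a non-receptor tyrosine kinase best known from blood cells, reached 10.8 at chr5:72868063-72868916. *Slc8b1*, the mitochondrial sodium/calcium exchanger, reached 9.33, and *Ubxn10*, a UBX domain protein linked to cilia, reached 9.16 at a centre that it shares with the window of its divergent neighbour *Pla2g2c*, a phospholipase gene. The peak of *Gli3*, a transcription factor of Hedgehog signalling, had a fold enrichment of 8.67, was 1775 bp wide and lay 653169 bp from the nearest WT peak. Like *Cgn*, these 5 genes lacked a WT promoter peak.

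The next members were at *Nedd9*, a focal adhesion scaffold (fold enrichment 8.51), and at *Disp2*, *Lsm10* and *Cpz* (8.18 each), which encode a relative of the Hedgehog transporter Dispatched, a factor of histone mRNA processing and a secreted carboxypeptidase. *Ccdc77* and *C1d*, the latter an RNA exosome cofactor, had 8.02. *Fahd2a*, *Elavl2*, *Map3k1*, *Efhb* and *Chmp1b* had 7.85, and *Celf2*, *Vps33b* and *Mocs1* had 7.69. *Ercc3*, a helicase of DNA repair and transcription, tied with the last 3 and was left out of the 20 by coordinate only. These genes cover RNA binding (*Elavl2*, *Celf2*), membrane traffic (*Vps33b*, *Chmp1b*), kinase signalling (*Map3k1*) and molybdenum cofactor synthesis (*Mocs1*), with no function common to them.

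**Figure D2:**
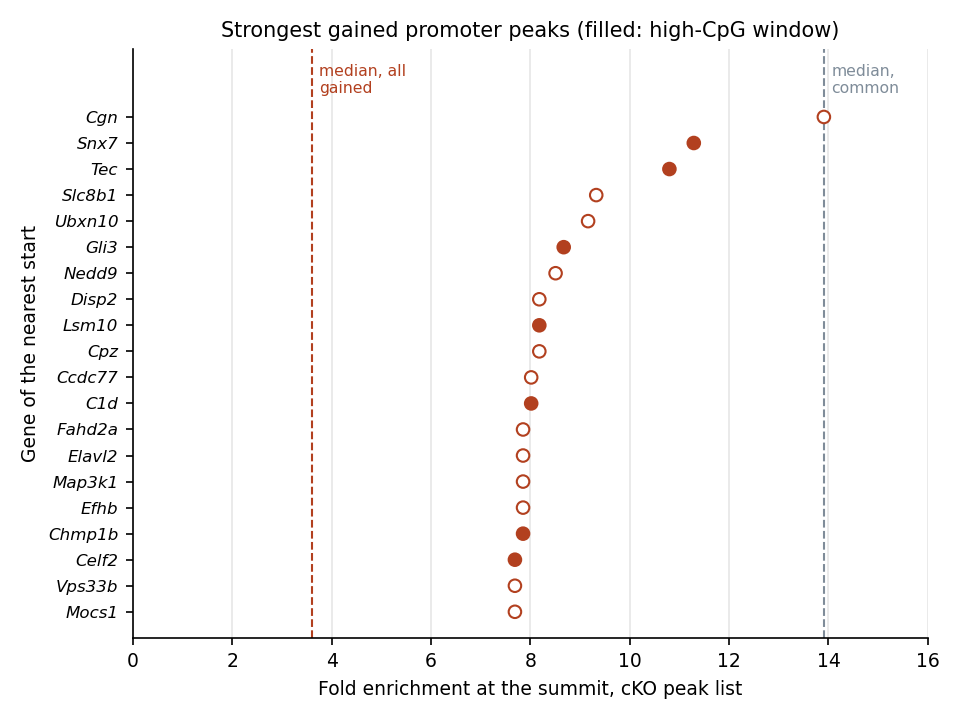
Fold enrichment at the summit (x axis) of the 20 strongest gained promoter peaks, named by the gene of the nearest start. Filled points mark the 7 members with a high-CpG window, dashed lines the medians of all gained (3.60) and of common (13.9) promoter peaks, and *Cgn* lies on the latter.

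To see whether genes with a gained promoter peak had a promoter peak in WT elsewhere, each gene was followed over all of its protein-coding starts. Of the 1032 genes, 861 (83.4%, 81.0 to 85.6) had no WT peak centred in any of their promoter windows. For 802 (77.7%, 75.1 to 80.1) no base of a WT peak touched any window. Since the members were selected for sharing no base with a WT peak, these shares are largely set by the rule and are given as a description. The 1032 genes are 4.98% of all 20722 autosomal protein-coding genes, and the 861 are 6.56% of the 13117 that had no WT promoter peak. In 22 genes 2 or more gained peaks were found. Among them was *Smarca2*, which had a peak with a fold enrichment of 3.93 at -55 bp from a start and another of 3.27 at a start farther along the gene.

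The other 171 genes had a WT promoter peak as well. The gained and the WT promoter peak lay within 1000 bp in 29 of these genes, over 1000 and up to 10000 bp apart in 80 and over 10000 bp apart in 62, with a median gap of 5541 bp. *Elavl2*, a neuronal RNA-binding protein, carried the gained peak 4376 bp from a WT peak, and that WT peak had a fold enrichment of 3.19 in its own list. In *Map3k1*, a kinase at the top of a MAP kinase cascade, the gap was 710 bp and the WT peak had 4.13. *Usp7*, a deubiquitinase, had both a gained peak (fold enrichment 5.89) and a WT promoter peak (5.82) 52651 bp apart. The fold values of the 2 lists rest on different libraries and backgrounds and were not compared.

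The rule placed every centre from 1000 bp upstream to 100 bp downstream of a start. A centre near the start, and more often upstream of it, is therefore largely set by the rule in both sets. Inside that window, gained and common promoter peaks were placed as follows. The median centre lay at -76.5 bp (95% interval, -94 to -66), where negative is upstream, and at -52 bp (-56 to -48) for common promoter peaks. Within 100 bp of the start lay 54.2% of members (51.2 to 57.3) and 60.6% of common peaks (59.4 to 61.7). Over 500 bp upstream lay 13.0% (11.1 to 15.2) and 7.22% (6.62 to 7.86), respectively. Divergent starts were rarer at the gained peaks, since 14 of 1036 members (1.35%, 0.807 to 2.26) had starts on both strands in reach of their centre, against 725 of 6678 common peaks (10.9%, 10.1 to 11.6). Pairs served by the same gained peak included *Col4a1* and *Col4a2*, which encode basement membrane collagens from a shared promoter (fold enrichment 3.27), and *Tap1* and *Psmb9*, which act in antigen presentation (3.93).

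**Figure D3:**
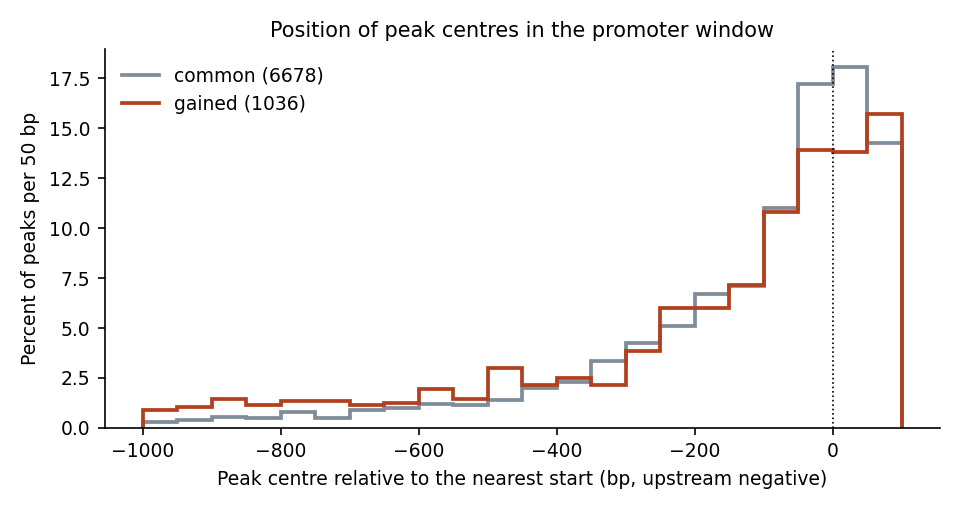
Percent of promoter peaks per 50 bp (y axis) by the distance of the peak centre from the nearest start (x axis, upstream negative), for gained and common promoter peaks. All centres lie in the window that chose the peaks. Inside it both sets pile up at the start, with median centres at -76.5 bp and -52 bp. The gained peaks have the larger share over 500 bp upstream (13.0% against 7.22%).

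Base composition was read from the reference in 500 bp around each peak centre and was not used to choose the members, although the promoter window favours CpG-rich sequence in any set. A high-CpG window had a ratio of at least 0.75 and at least 55% GC. Such a window was found at 275 of 1036 gained promoter peaks (26.5%, 23.9 to 29.3), at 3765 of 6678 common ones (56.4%, 55.2 to 57.6) and at 3.53% of gained peaks away from promoters. A ratio under 0.48 was found at 414 members (40%, 37.0 to 43.0) and at 11.6% of common promoter peaks (10.9 to 12.4). The median GC content was 59.4% (58.6 to 60.6) in the gained and 63.2% (63.0 to 63.4) in the common promoter peaks. In windows set at the start in place of the peak centre, the median CpG ratio was 0.594 at members, 0.828 at common promoter peaks and 0.243 at the 19404 starts of genes without a promoter peak in either list. By composition the members thus stood between open promoters and promoters without a peak.

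The gap in composition was smaller among peaks of like strength at a −log10 q under 20. Under 5, high-CpG windows made up 20.6% (17.1 to 24.6) of the gained and 26.5% (17.4 to 38.0) of only 68 common promoter peaks. At a −log10 q between 5 and 10, high-CpG windows made up 31.3% (26.8 to 36.3) of the gained and 33.3% (27.7 to 39.5) of the common promoter peaks, and between 10 and 20 the shares were 30.6% (24.3 to 37.6) and 36.4% (32.6 to 40.3). At 20 or more they were 30.2% (18.6 to 45.1) of only 43 gained and 59.7% (58.4 to 61.0) of common peaks. There the gap stayed about as large as over all peaks, in a class without an upper limit that does not match strength. Among all windows of 50 to 60% GC, the median CpG ratio was 0.368 (0.343 to 0.412) in gained and 0.693 (0.676 to 0.704) in common promoter peaks, and for peaks with a −log10 q of 5 to 20 it was 0.440 (0.389 to 0.504) and 0.481 (0.446 to 0.530).

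**Figure D4:**
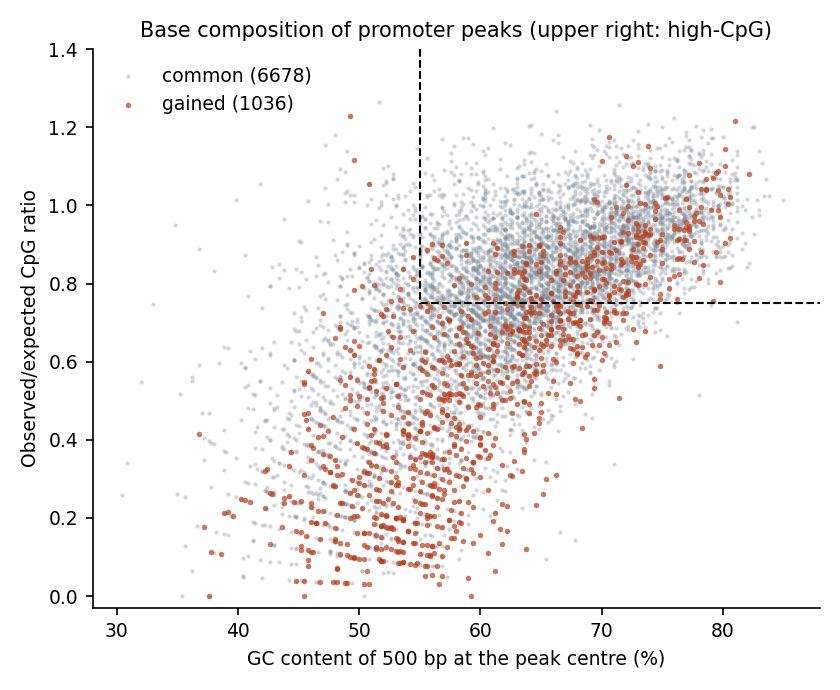
GC content (x axis) and observed/expected CpG ratio (y axis) of 500 bp at the centre of each gained (1036) and common (6678) promoter peak. The dashed corner marks the high-CpG windows, which hold 26.5% of gained and 56.4% of common promoter peaks, and many gained peaks lie below it.

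The 275 high-CpG members and the 761 others differed little in median strength and more in place and in rows. The median fold enrichment was 3.76 and 3.60, and the median −log10 q was 6.07 and 5.44. The median distance to the nearest WT peak was 48100 bp and 13904 bp. On 3 or more rows were 79.6% (74.5 to 84.0) of the former and 67.3% (63.9 to 70.5) of the latter. Within 100 bp of the start were centred 71.3% (65.7 to 76.3) of the former and 48.1% (44.6 to 51.6) of the latter. The gene of the nearest start had no WT promoter peak in 254 of 275 (92.4%) and 610 of 761 (80.2%) cases. *Gli3*, *Snx7* and *Celf2* belong to the high-CpG members, and *Cgn* and *Cpz* do not.

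Distance to WT peaks varied widely, from 11 bp to over a megabase with a median of 20179 bp (17459 to 23225). A WT peak lay within 1000 bp of 75 members (7.24%, 5.81 to 8.98) and more than 50000 bp away from 294 (28.4%, 25.7 to 31.2). For gained peaks away from promoters the shares were 7.22% and 26.4%. Members on mostly unique sequence, where at least 50% of sampled 50-mers occur once in the genome, numbered 1006 (97.1%, 95.9 to 98). Of the rest, 4 were too narrow to sample and 26 fell under that share, among them gene models in repeated families such as *Gm6460* and *Gm16506* and the *Zfp345* zinc finger gene, where a read could belong to another copy.

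At the limits of the rule the values were as follows. *Lgals12*, *Etnk2* and *Dhtkd1* were members 11, 16 and 17 bp from a WT peak, while the promoter peaks of *Tmc6*, *Apoc1* and *Cbfa2t3* shared 2, 4 and 12 bp with a WT peak and were counted as common. *Gm9936* and *Mtmr14* were members with centres at -990 bp, whereas gained peaks at *Idnk* and *Cirbp*, at -1006 and -1008 bp, were not. Downstream, *Gm12216* and *Ctnnd2* were members at 100 bp, and *Sec22b* and *Sdr42e1*, at 102 bp, were not. The width limit removed no peak. The widest members were at *Efna5*, an ephrin ligand (3478 bp), *Gm6460* (3463 bp) and *Rexo1*, an exonuclease gene (3115 bp). Common promoter peaks with under 50% of their length covered by WT peaks numbered 1054.

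Turning to function, genes were grouped in 25 lists by symbol, and 340 of the 1032 genes (32.9%) fell in at least 1 list, against 36.6% of all autosomal protein-coding genes. The share of a list with a gained promoter peak is set beside the 4.98% of all genes. Because genes that already had a WT promoter peak rarely counted, the share among list genes without one is given too, beside 6.56% for all such genes. Chemosensory receptor genes weigh on these background values, which rose to 5.37% and 7.40% without them.

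Zinc finger genes named Zfp, Zscan or Zkscan, most of which encode DNA-binding repressors, had a gained promoter peak in 35 of 413 cases (8.47%, 6.16 to 11.6). Of the 200 without a WT promoter peak, 32 had one (16%, 11.6 to 21.7). Their median −log10 q was 6.71, against 5.44 over all genes with a gained promoter peak, 25 of the 35 were on 3 or more rows and 34 were on mostly unique sequence. *Zfp148* had the strongest peak (fold enrichment 7.53), followed by *Zfp383* (6.87), *Zfp709* (6.22) and *Zfp605* (5.24). *Zfp383*, *Zfp27* (4.25) and *Zfp790* (4.09) lay side by side at chr7:29818766-29908748. Only 4 of the 35 had a high-CpG window.

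Signalling genes formed the next groups. Protein kinases and phosphatases had gained promoter peaks in 29 of 363 cases (7.99%, 5.62 to 11.2), and in 22 of the 160 without a WT promoter peak (13.8%, 9.26 to 19.9). *Map3k1* led them, followed by *Ppp1r9a*, a phosphatase targeting subunit of synapses (fold enrichment 7.04), *Epha5*, an ephrin receptor (6.22), and *Cdk14*, a cyclin-dependent kinase (5.89). Small GTPases and their regulators had them in 26 of 299 cases (8.70%, 6.0 to 12.4), and in 21 of 146 without a WT promoter peak (14.4%, 9.60 to 21). The list is built on symbols, so its strongest member, *Arl14epl* (7.53), is named after a GTPase and is not known to be one. *Rap1gap*, which switches off the GTPase RAP1 (5.40), *Rab12*, a GTPase of membrane traffic (5.07), and *Ranbp9*, a RAN-binding scaffold (5.07), came next.

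Genes of excitable cells were on the list of ion channels, with 25 of 273 (9.16%, 6.28 to 13.2) gained and 23 of 208 (11.1%, 7.48 to 16) among those without a WT promoter peak. Among the strongest were the potassium channel *Kcnt2* (fold enrichment 5.89), the sodium channel *Scn8a* (4.91) and the calcium channel *Cacna1c* (4.42). Nervous system synapse genes had 9 of 115 (7.83%, 4.17 to 14.2), all 9 among the 76 without a WT promoter peak (11.8%, 6.36 to 21), an interval that holds 6.56%. Of these, *Stx7* (6.38) and *Vamp8* (5.89) encode SNARE proteins of endosomal fusion in many cell types, while *Cntnap5c* (4.91) is a neurexin relative.

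**Figure D5:**
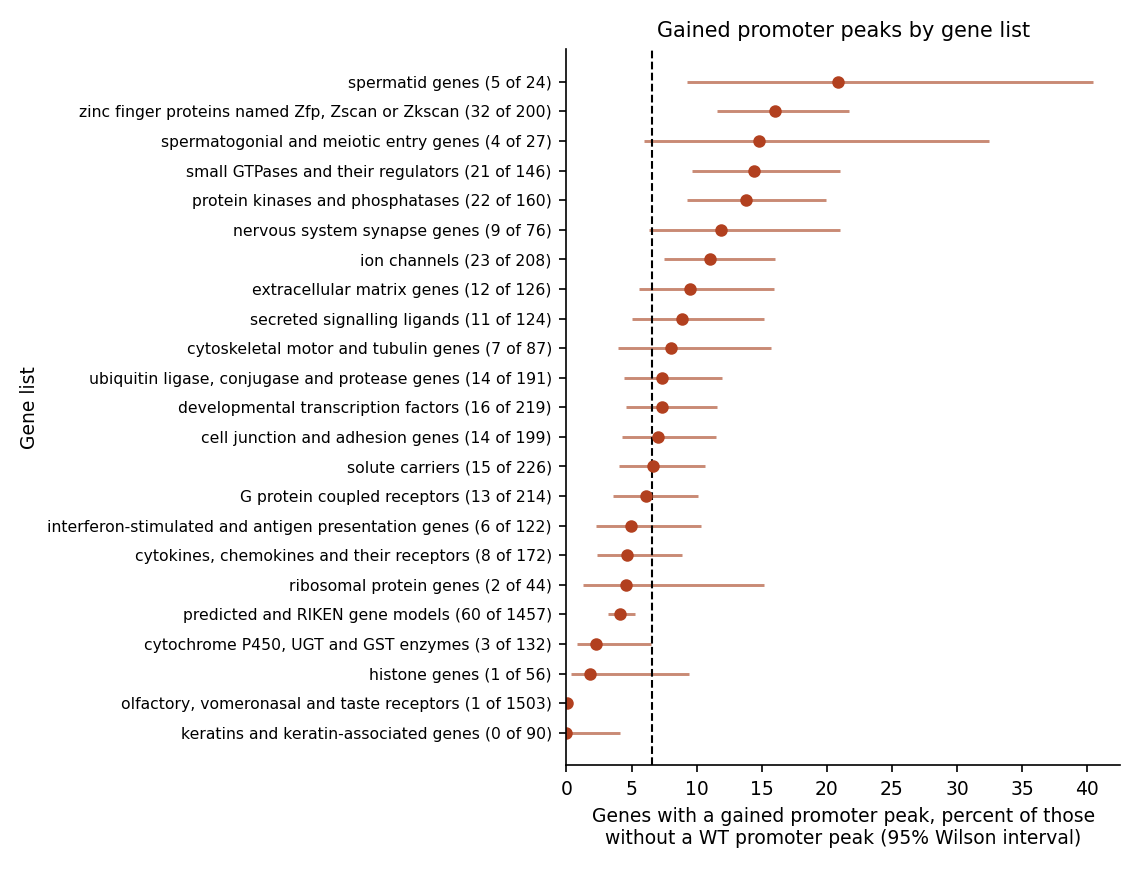
For each function list with at least 20 genes that lack a WT promoter peak, the percent of those genes with a gained promoter peak (x axis; points, with 95% Wilson intervals as bars; counts beside the names). The dashed line is the 6.56% of all such autosomal protein-coding genes. The intervals of zinc finger genes (16%), small GTPases (14.4%), kinases and phosphatases (13.8%), ion channels (11.1%) and spermatid genes (20.8%) lie above it, and those of olfactory, keratin, cytochrome P450 and predicted genes below it. Without chemosensory receptor genes the background is 7.40%, just under the lower bound of ion channels (7.48%). Only 1 of the 5 spermatid genes had a gained peak on 3 or more rows.

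Developmental transcription factors, which include the homeobox, Fox, Gli and Sox families, had gained promoter peaks in 20 of 274 cases (7.30%, 4.77 to 11), and 195 of the 274 had no promoter peak in either list. *Gli3* was followed by *Klf7* (fold enrichment 5.89), *Lhx1* (5.07) and *Foxd2* (4.58), and 13 of the 20 lay in high-CpG windows. Secreted signalling ligands had 12 of 148 (8.11%, 4.70 to 13.6), all 12 on 3 or more rows and with a median −log10 q of 7.72. *Efna5* (6.05), *Fgf18* (4.91), *Dll1*, a Notch ligand (4.58), and *Sema6c*, a semaphorin (4.42), were the strongest. Among genes without a WT promoter peak the shares were 7.31% (4.55 to 11.5) for the transcription factors and 8.87% (5.03 to 15.2) for the ligands, and both intervals hold the background of 6.56%.

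Receptors, surface proteins and transporters had intervals that held the 6.56% of all genes without a WT promoter peak. G protein coupled receptors other than chemosensory ones had 16 of 244 (6.56%, 4.08 to 10.4) and 13 of 214 without a WT promoter peak (6.07%, 3.58 to 10.1), led by the Wnt receptor *Fzd7* (fold enrichment 6.05), the glutamate receptor *Grm3* (5.56), the somatostatin receptor *Sstr4* (4.75) and *Gpr12* (4.25). Cell junction and adhesion genes had 14 of 221 (6.33%, 3.81 to 10.4), all of them among the 199 without a WT promoter peak (7.04%, 4.24 to 11.5). Apart from *Cgn* these were the integrin *Itgb3* (4.91), the adhesion molecule *Ncam1* (4.75), the cadherin *Cdh18* (4.25) and weaker ones, and 6 of the 14 were on 3 or more rows. Extracellular matrix genes had 12 of 142 (8.45%, 4.90 to 14.2), a share like that of zinc finger genes, and these 12 were among 126 without a WT promoter peak (9.52%, 5.53 to 15.9). They had the collagens *Col25a1* (4.42) and *Col16a1* (4.09), the fibulin *Fbln7* (4.09) and the collagen *Col6a2* (3.76) as the strongest. Solute carriers had 17 of 343 (4.96%, 3.12 to 7.79) and 15 of 226 without a WT promoter peak (6.64%, 4.06 to 10.7), led by the riboflavin transporter *Slc52a3* (6.55), *Slc12a9* (4.58), the nucleoside transporter *Slc29a2* (4.58) and *Slc24a3* (4.25).

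The intervals of immune genes held the values of all genes. Cytokines, chemokines and their receptors had 8 of 186 (4.30%, 2.20 to 8.26), and 8 of 172 without a WT promoter peak (4.65%, 2.38 to 8.91), with *Il17rb* (fold enrichment 5.40), *Cxcl1* (4.58), *Tnfrsf1a* (4.42) and *Tnfrsf11a* (3.44) as the strongest. Interferon-stimulated and antigen presentation genes had 8 of 138 (5.8%, 2.97 to 11), and 6 of 122 without a WT promoter peak (4.92%, 2.27 to 10.3). *Nlrp14* (4.25), named for its family although it is known from germ cells and oocytes, *Tap1* (3.93), the interferon regulatory factor *Irf1* (3.60) and *Nlrx1* (3.60) led this list.

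The remaining groups were as follows. Ubiquitin ligases, conjugases and proteases had 17 of 393 (4.33%, 2.72 to 6.82), and 14 of 191 without a WT promoter peak (7.33%, 4.42 to 11.9), with *Usp7* (fold enrichment 5.89), *Herc3* (5.24), *Trim9* (5.24) and *Rnf165* (3.93). Cytoskeletal motors and tubulin genes had 8 of 143 (5.59%, 2.86 to 10.7), and 7 of 87 without a WT promoter peak (8.05%, 3.95 to 15.7), with *Tubgcp5*, a subunit of the microtubule-nucleating ring (6.71), the kinesins *Kif2b* (4.91) and *Kif13a* (4.09) and the myosin light chain *Myl9* (4.42). Ribosomal protein genes, 114 of whose 158 members had a WT promoter peak, had 3 (1.90%, 0.648 to 5.43), and 2 of 44 without a WT promoter peak (4.55%, 1.26 to 15.1). The 3 were the mitochondrial *Mrpl42* (5.73) and *Mrps10* (5.24) and the cytoplasmic *Rps14* (4.09). Histone genes had 1 of 79, *Hist1h4j* (2.62), which is 1 of 56 without a WT promoter peak (1.79%, 0.316 to 9.45). The lowest shares were those of olfactory, vomeronasal and taste receptors, with 1 of 1506 (0.0664%, 0.0117 to 0.375), and of keratins, with 0 of 91, with an upper Wilson bound of 4.05%. The receptor was *Olfr1428*, at a sequence with no unique 50-mer. The cytochrome P450, UGT and GST enzymes had 3 of 145 (2.07%, 0.706 to 5.91), and 3 of 132 without a WT promoter peak (2.27%, 0.776 to 6.47), namely *Gstm7* (3.76), *Cyp4f13* (3.27) and *Cyp4f17* (3.11). Predicted and RIKEN gene models had 62 of 1775 (3.49%, 2.73 to 4.45), and 60 of 1457 without a WT promoter peak (4.12%, 3.21 to 5.26), led by *2610001J05Rik* (7.20), *Gm16506* (6.87), *B430306N03Rik* (6.71) and *A830005F24Rik* (6.38), and 13 of the 62 were not on mostly unique sequence.

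The lists of germ cell genes were short, so their intervals are wide. Pachytene spermatocyte genes such as *Dmc1*, *Spo11* and *Piwil1*, which act in meiotic recombination and the piRNA pathway, had WT promoter peaks in 24 of 35 cases, and 0 of 35 had a gained promoter peak (upper Wilson bound, 9.89%, which lies above the 4.98% of all genes), nor had any of the 11 without a WT promoter peak (upper bound, 25.9%). Of 30 spermatogonial and meiotic entry genes, 3 had a WT promoter peak and 5 a gained one (16.7%, 7.34 to 33.6), an interval above the 4.98% of all genes. Without a WT promoter peak the count was 4 of 27 (14.8%, 5.92 to 32.5), an interval that holds 6.56%. The 5 genes were *Ccnd1*, a D-type cyclin of proliferating cells (fold enrichment 5.56, 3 rows), *Lhx1* (5.07, 3 rows), *Ccnd3* (3.44, 3 rows), the spermatogonial stem cell factor *Zbtb16* (3.11, 1 row) and *Sohlh1*, a factor of spermatogonial differentiation (2.95, 2 rows).

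Of 34 spermatid genes, 10 had a WT promoter peak and 5 a gained one (14.7%, 6.45 to 30.1), all among the 24 without a WT promoter peak (20.8%, 9.24 to 40.5). These intervals lay above the 4.98% of all genes and the 6.56% of all genes without a WT promoter peak. *Izumo1*, the sperm protein of gamete fusion, had a fold enrichment of 4.42 on 3 rows and *Gsg1* had 3.44 on 1 row. *Prm1* and *Prm2*, the protamines that replace histones in sperm, shared a single peak at chr16:10796732-10797169 with 3.44 on 2 rows, centred at -65 bp from the *Prm1* and -817 bp from the *Prm2* start. *Catsper4*, a sperm calcium channel subunit, had 2.95 on 2 rows. The 5 genes thus rest on 4 peaks, of which 1 was on 3 rows.

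Of the 30 SWI/SNF subunit genes, 17 had a WT promoter peak and 4 a gained one (13.3%, 5.31 to 29.7), 3 of them among the 13 without a WT promoter peak (23.1%, 8.18 to 50.3). *Smarcd3*, an alternative BAF subunit of heart and other tissues, had a fold enrichment of 6.05 on 3 rows at chr5:24623994-24624978. *Smarca2*, the ATPase that can take the place of SMARCA4 in BAF, had 3.93 on 3 rows at chr19:26622805-26623995. *Dpf1*, a subunit of neuronal BAF, had 3.27 on 2 rows and also a WT promoter peak, and *Bcl11a* had 2.45, the lowest value in the set. *Arid1a* itself had a WT promoter peak at chr4:133756561-133757732, and this does not check the genotype, because the deleted exons lie inside the gene.

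Markers of other testis cells were inspected because the purification enriches for pachytene cells without excluding others. Of 14 Sertoli cell markers, 3 had a gained promoter peak, namely *Cldn11*, a tight junction claudin (fold enrichment 3.93 on 1 row), *Clu* (3.27 on 2 rows) and *Wt1* (3.27 on 2 rows), and 4 had a WT promoter peak. The share of 21.4% (7.57 to 47.6) has an interval above the 4.98% of all genes, and none of the 3 was on 3 or more rows. WT promoter peaks were at *Amh*, *Ctsl*, *Gata4* and *Inha*, and the other 7 markers, *Aard*, *Amhr2*, *Dhh*, *Fshr*, *Kitl*, *Sox9* and *Trf*, had no promoter peak in either list. None of the 8 Leydig, 5 peritubular myoid, 5 endothelial and 7 macrophage markers had a gained promoter peak. The part of other cell types in the gained promoter peaks was not tested.

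The members were spread over all 19 autosomes. Chromosome 7 held the most (103) and chromosome 12 the fewest (23). As a share of protein-coding genes, chromosome 10 was highest with 68 of 1020 genes (6.67%, 5.29 to 8.37). Chromosome 12 was lowest with 23 of 642 (3.58%, 2.4 to 5.32), an interval that just overlaps that of chromosome 10. The interval of the larger chromosome 11, with 62 of 1638 genes (3.79%, 2.96 to 4.82), lay below that of chromosome 10. Chromosome 10 thus lay above and chromosome 11 below the 4.98% of all genes, and differences between chromosomes were not tested. Another member lay within 100000 bp of 232 members (22.4%), in 107 runs of which 16 held 3 or more. No such share was taken for common promoter peaks or for all starts, so clustering beyond the spacing of genes was not tested. Some runs were 2 peaks of a single gene, such as *Armc4*. The longest runs held 4 peaks, at *Shmt2*, *Nxph4* and *Lrp1* on chromosome 10 and at *Ceacam2*, *B3gnt8* and *Tgfb1* on chromosome 7. In these runs, *Nxph4* and *B3gnt8* each held 2 of the 4 peaks. A run on chromosome 13 joined *Ocln* and *Marveld2*, both tight junction genes, with *Ccdc125*.

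Motifs of promoter-binding factors were counted in 300 bp centred on each peak, on either strand, as exact letters with N for any base, and are a description of the sequence only. For starts, the 300 bp ran from 250 bp upstream to 50 bp downstream of the start. Shares of peaks and of starts thus rest on differently placed windows, and a gap between them may come from the placing. The GC box GGGCGG, bound by SP factors, was held by 47.4% of members (44.4 to 50.4) and by 64.8% of common promoter peaks (63.6 to 65.9), against 21.3% of starts without a peak and 43.5% of all 52065 autosomal starts. The ETS motif CCGGAAGT was held by 2.41% (1.64 to 3.54) and 7.41% (6.81 to 8.07), and by 4.71% of all starts. The NRF1 motif GCGCATGC was held by 2.03% (1.33 to 3.08) and 4.84% (4.35 to 5.38), and by 3.12% of all starts. The cyclic AMP response element TGACGTCA, the site of the germ cell activator CREM, was held by 1.16% (0.664 to 2.01) and 3.14% (2.75 to 3.59), and by 2.06% of all starts, and the CRE core TGACG, which it contains, by 19.3% (17.0 to 21.8) and 32.2% (31.1 to 33.3), and by 23.4% of all starts. Among peaks of like strength, with a −log10 q of 5 to 20, the shares of gained and common promoter peaks were 51.9% and 55.7% for the GC box, 3.47% and 2.30% for ETS, 2.19% and 2.30% for NRF1 and 20.3% and 22% for the CRE core, with overlapping intervals in each. Among high-CpG windows alone the shares stayed apart for some motifs, at 22.9% (18.3 to 28.2) of gained and 37.8% (36.2 to 39.3) of common promoter peaks for the CRE core and 2.18% (1.0 to 4.68) and 8.69% (7.83 to 9.63) for ETS, whereas the GC box was held by 82.5% (77.6 to 86.6) and 79.2% (77.9 to 80.4). The MAZ motif GGGAGGG went the other way in these windows, at 35.6% (30.2 to 41.5) of gained and 28.1% (26.7 to 29.6) of common promoter peaks.

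Among the other motifs, CCAAT, the E box and the YY1 motif were also held by a smaller share of members than of common promoter peaks, and the intervals of the rest overlapped. At a −log10 q of 5 to 20 this was not so, since the shares of gained and common promoter peaks were 29.8% (26.1 to 33.8) and 25.9% (23 to 29) for CCAAT, 6.22% (4.48 to 8.56) and 6.90% (5.36 to 8.84) for the E box and 3.11% (1.95 to 4.92) and 2.18% (1.38 to 3.42) for YY1, with overlapping intervals. Among high-CpG windows they were 4.36% (2.51 to 7.47) and 10.1% (9.20 to 11.1) for the E box, 15.6% (11.8 to 20.4) and 29.6% (28.1 to 31) for CCAAT and 2.55% (1.24 to 5.16) and 5.90% (5.19 to 6.69) for YY1. The MYB motif AACNGTC, bound by the pachytene activator MYBL1, was held by 6.66% of members (5.30 to 8.34), 7.14% of common promoter peaks and 7.29% of all starts. The RFX core GTTGCCA was held by 4.05% of members and 4.06% of common promoter peaks, beside 3.89% of all starts. The TATA box TATAAA was held by 5.50% (4.27 to 7.06) and 4.13% (3.68 to 4.64), beside 11.3% of all starts, and the GATA motif AGATAA by 5.69% (4.44 to 7.28) and 4.13% (3.68 to 4.64), beside 9.62%. CCAAT was held by 27.1% (24.5 to 29.9) and 32.6% (31.5 to 33.7), beside 35.6%. The E box CACGTG was held by 5.98% (4.70 to 7.6) and 9.19% (8.52 to 9.91), beside 7.47% of all starts, the YY1 motif AAGATGGC by 2.61% (1.8 to 3.77) and 5.18% (4.67 to 5.74), beside 3.30%, and the AP-1 motif TGANTCA by 4.15% and 3.23%, beside 6.51%. The CTCF core AGGGGGC was held by 15.3% and 15.5%, beside 12%, and the MAZ motif GGGAGGG by 28.8% and 26.3%, beside 24.1%. In the sequences shown above, the *Cgn* stretch held the GC box, the CCAAT box and the CRE core, the *Snx7* stretch the GC box and the CCAAT box, the *Nedd9* stretch the CRE core, the *Disp2* stretch the GC box, the CCAAT box, the CRE core and the NRF1 motif, the *Ubxn10* stretch the E box, the *Cpz* stretch the CRE core, the GATA motif and the CTCF core, and the *Prm1* stretch the YY1 motif.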

How the data were processed

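ATAC-seq libraries were made by the Omni-ATAC protocol from 4 Arid1aWT and 4 Arid1acKO samples of pachytene spermatocytes. Per the labels, the submitters' processing notes and the study's methods, the authors trimmed reads with Trim Galore, aligned them to mm10 with Bowtie2, marked duplicates with Picard, removed mitochondrial reads, used MACS2 with a constant genome background for each library, filtered out blacklisted regions, and intersected the replicates of a genotype. No filter on mapping quality was stated. The deposited values are a fold enrichment, which is a linear ratio of summit pileup to background, −log10 q values, a score of 10 times −log10 q, and a summit offset, recorded as other. All are values of 1 library per list, and the depth of the others is unknown.

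Rows of 1 peak name were merged into their span. Starts are those of protein-coding transcripts in GENCODE vM21, whose build is that of mm10. The background was recovered from the grid of fold values. Uniqueness was sampled by 50-mers every 25 bp. Shares carry 95% Wilson intervals and medians order-statistic intervals, both for counting error only. The steps were tested on simulated peaks. Python 3.11.15, NumPy 2.4.6, pandas 2.3.3, SciPy 1.17.1 and Matplotlib 3.10.9 were used.

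No test between genotypes was run, because each is represented by 1 list without replicate values. The members, gene lists and motifs were chosen with earlier results of these data known. Named genes are the 20 members with the highest −log10 q among those on at least 3 rows with at least 50% unique 50-mers, up to 4 genes with the highest −log10 q in each list, every cell type marker with a gained promoter peak, the 3 widest members, the members nearest to the limits of the rule, and the chromosomes with the highest and lowest share of genes. *Ercc3*, *Catsper4*, *Sohlh1*, *Zfp345*, chromosome 11 and the genes of runs and divergent pairs were named after their values were seen. A gene that this rule names among the lists is not reported here. A total of 13 alternatives was tried.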

Additional observations from a re-analysis of the deposited data

How the results depend on the processing

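No paired analysis was possible because each genotype is represented by 1 list, and leaving out a replicate was not possible for the same reason. The number of gained promoter peaks depended strongly on the rule. The 1036 members fell to 590 if a −log10 q of 5 was required, to 223 if 10 was required and to 430 when the weakest cKO peaks were left out until both lists were equally long. The count rose to 2090 when cKO peaks with under 50% of their length covered by WT peaks also counted, to 2947 within 3000 bp on either side of a start, and to 2273 when rows were counted in place of peaks. Genes with a gained promoter peak changed alike, to 596, 225, 436, 2111 and 2735 under the same first 5 settings.

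The share of genes with no WT promoter peak (83.4%) was 86.9% and 88.4% at the stricter −log10 q thresholds, 87.6% with equal list lengths, 51.0% with partial cover, 85.8% at 1000 bp or more from a WT peak, 89.9% in the window from 300 bp upstream to 100 bp downstream, 53.9% in the 3000 bp window, 77.9% by any base in the window and 72.1% with the starts of all transcripts. The median fold enrichment (3.60) was 4.42 and 5.56 at the stricter thresholds, 3.93 on 3 or more rows, 4.75 with equal lengths, 5.07 with partial cover and 3.44 in the wide window. The share on 3 or more rows (70.6%) was 84.9% and 94.6% at the stricter thresholds, 90.7% with equal lengths, 85.2% with partial cover, 61.6% in the wide window, 66.4% with all transcripts and 79.3% by rows. High-CpG windows (26.5%) made up 31.0% and 30.5% at the stricter thresholds, 29.96% on 3 or more rows, 30.7% with equal lengths, 33.2% with partial cover, 31.0% in the narrow window, 18.8% in the wide window and 21.9% with all transcripts. Median GC content (59.4%) moved to 61.2% in the narrow window, 56.4% in the wide window and 57.8% with all transcripts.

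The share within 1000 bp of a WT peak (7.24%) was 5.08% and 2.69% at the stricter thresholds, 4.19% with equal lengths, 54.0% with partial cover, 4.75% in the narrow window and 13.2% in the wide window. Unique sequence (97.1%) moved to 98.2% on 3 or more rows and 95.5% in the wide window. The scaled pileup reached the WT minimum in 96.9% of members, and in 100% at both stricter thresholds and with equal lengths, where the threshold implies it, in 97.8% on 3 or more rows, 98.3% with partial cover, 98% in the narrow window, 93.8% in the wide window and 95.6% with all transcripts. Of the 20 strongest members, 20 were kept under each alternative except 19 at 1000 bp or more from a WT peak and 17 in the narrow window. Shares of zinc finger genes, kinases and phosphatases and small GTPases stayed above that of all genes under each of the 13 alternatives. So did those of the small lists of spermatogonial and meiotic entry, SWI/SNF subunit and synapse genes. At a −log10 q of 10 these rested on only 2 of 30, 1 of 30 and 3 of 115 genes. Secreted ligands and developmental transcription factors stayed above it too, but with small leads when a −log10 q of 10 was required. Secreted ligands then had 2 of 148 (1.35%) and transcription factors 1.095%, against 1.086% of all genes. Of the 1506 chemosensory receptor genes, 0 had a gained promoter peak at that threshold. The background without these genes, which is higher, was not computed for the alternatives, so these small leads are not a result. Ion channels stayed above it under 12 and fell to 0.733% under that threshold, and spermatid genes stayed above it under 11, with a lowest value of 0.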
